A study of Mus musculus with 8 samples.

Results

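The 10 genes described here are the insulin-like growth factor (IGF) binding proteins Igfbp1 to Igfbp7, the receptors Igf1r and Igf2r, and Irs1, an adaptor of the type 1 receptor. They were taken by name from 19057 genes with a single symbol on the array. The family was chosen by a measured value, the rise of Igfbp7 with TGF-beta in these same samples, which was among the largest. For this reason values of Igfbp7 in that comparison are given as a description, without a test. The array carries 23 annotated probes for the 10 genes, of 45281 probes in all. The largest differences in the family were rises of Igfbp7 (15.2-fold) and Igfbp5 (8.05-fold), with smaller rises of Igf1r and Igfbp4. The sizes of the largest rises depended on the processing. Without background correction the log2 differences were 2.11 for Igfbp7 and 2.05 for Igfbp5. In the authors' processed values they were 2.23 and 2.13.

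Total RNA came from mouse intestinal organoids, small epithelial structures grown ex vivo. The treated group consists of 4 samples exposed for 18 h to 3 ng/ml TGF-beta, and the other group of 4 untreated samples. All 8 samples carried a mutated Apc and had received tamoxifen, after which growth factors were withdrawn from the medium, and the labels give a C57Bl background and an age of 3 to 4 months. Apc is the tumour suppressor whose loss keeps Wnt signalling active in intestinal epithelium. The labels name neither the Apc allele nor the recombinase line nor the number of animals. The numbers 1 to 4 in each group are not tied to separate cultures, so p-values measure only the spread between these samples.

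IGF-1 and IGF-2 are secreted growth factors that signal through the type 1 receptor, a tyrosine kinase encoded by Igf1r, and its adaptors Irs1 and Irs2 to PI3-kinase and Akt. Igf2r has no kinase and carries IGF-2 and mannose-6-phosphate-tagged enzymes to lysosomes, which lowers the amount of free IGF-2. The binding proteins Igfbp1 to Igfbp6 hold IGFs with high affinity outside the cell and can limit or prolong their action, while Igfbp7 binds IGFs weakly. Proteases release IGFs by cutting the binding proteins, and stanniocalcins inhibit such proteases. In many cell types TGF-beta is known to change the transcription of several binding proteins.

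Each sample was measured on 1 Illumina bead array, and levels are background-corrected, quantile-normalized log2 intensities. Tests were run on probes that at least 4 of the 8 arrays detected (detection p under 0.05). The lowest detected signal of an array lay between 5.04 and 5.23 on that log2 scale, and the 4 TGF-beta arrays had 14554 to 16108 detected probes, against 15281 to 16626 on the 4 untreated arrays. Effects are log2 differences, TGF-beta minus untreated, with a standard error (SE) from limma and p-values adjusted over all 15573 tested probes at a threshold of 0.05. Of the 9062 genes tested, 19.4% passed in either direction, 9.56% were higher and 9.88% were lower with TGF-beta, and the median difference was -0.05. Replicates 2 and 3 of both groups had high Xist (mean 9.65, against 4.58 in replicates 1 and 4), and replicates 1 and 4 had the Y-linked Eif2s3y (8.33, against 4.58), so effects are also given within these replicate sets.

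Of the 10 genes, 7 had a tested probe and 3 (Igfbp1, Igfbp6 and Irs1) did not. Besides Igfbp7, 6 members were tested, each counted by its brightest tested probe. In limma 3 of these rose (Igfbp5, Igfbp4 and Igf1r), 0 fell (0 also at an unadjusted p under 0.05) and 3 did not pass (Igfbp2, Igfbp3 and Igf2r), set against 9.56% of all tested genes that rose and 9.88% that fell. At the unadjusted threshold 18% of all tested genes were lower (limma). The second Igfbp2 probe, which is not in the count, was also lower at that threshold. With the replicate number as a block, 3 of the 6 rose and 1 fell (Igfbp2), against 1302 and 1571 of all 9062 tested genes. The same 3 that rose had groups whose 4 values did not overlap, as had 24.8% of all tested genes. The median difference of the 6 was 0.26 on the log2 scale. The counts are small, the family was picked with these results in view, and they describe these genes only. In bulk RNA, fewer cells of a type and less RNA per cell cannot be told apart.

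The promoters of Igfbp7 and Igfbp5 are shown because these were the members with the largest differences, and that of Igf2r because its difference did not pass the threshold. Each runs from 250 bases before to 50 bases after the annotated start in RefSeq, build GRCm38.p6, written 5′ to 3′ on the gene's strand: Igfbp7 at chr5:77407996-77408295 (minus strand), Igfbp5 at chr1:72874816-72875115 (minus) and Igf2r at chr17:12769657-12769956 (minus). Capitals mark matches, on either strand, to the Smad box CAGAC (its reverse complement is GTCTG), the Tead core CATTCC or the AP-1 motif TGANTCA.
Igfbp7: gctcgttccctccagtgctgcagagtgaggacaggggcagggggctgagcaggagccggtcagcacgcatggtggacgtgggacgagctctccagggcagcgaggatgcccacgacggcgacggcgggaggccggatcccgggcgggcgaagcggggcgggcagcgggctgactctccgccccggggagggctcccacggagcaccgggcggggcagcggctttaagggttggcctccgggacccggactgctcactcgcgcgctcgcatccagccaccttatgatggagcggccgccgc
Igfbp5: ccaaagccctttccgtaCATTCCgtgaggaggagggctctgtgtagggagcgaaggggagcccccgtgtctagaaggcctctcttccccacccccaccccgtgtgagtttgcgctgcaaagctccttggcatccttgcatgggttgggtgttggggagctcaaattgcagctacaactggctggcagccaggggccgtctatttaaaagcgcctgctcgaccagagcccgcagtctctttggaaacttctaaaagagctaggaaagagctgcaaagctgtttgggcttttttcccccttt
Igf2r: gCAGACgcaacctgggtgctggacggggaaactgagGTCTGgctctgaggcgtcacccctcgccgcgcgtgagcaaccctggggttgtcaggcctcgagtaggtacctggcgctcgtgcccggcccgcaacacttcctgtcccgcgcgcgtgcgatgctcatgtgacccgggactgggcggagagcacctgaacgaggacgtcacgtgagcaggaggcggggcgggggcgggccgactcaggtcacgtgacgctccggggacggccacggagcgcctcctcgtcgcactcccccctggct

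The Igfbp7 promoter held none of the 3 motifs and was 73.3% G or C, against a median of 52.7% over the 32851 promoters of the table. The Igfbp5 promoter held 1 CATTCC, whose first base lies at -233 from the start, and was 56.3% G or C. CATTCC occurs in 14.66% of promoters of this length. The Igf2r promoter held CAGAC at -249 and -214, a match found in 49.59% of promoters. TGANTCA occurs in 7.808% of promoters and among the 10 genes was found at -39 in 1 of the promoters of Igfbp2. The Igfbp4 promoter held none of the motifs, and that of Igf1r held CAGAC at -169. CAGAC was also present in the promoters of Igfbp2, Igfbp6 and Irs1, that of Irs1 held CATTCC as well, and those of Igfbp1 and Igfbp3 held none of the motifs. A match is a string of letters, and its absence says only that the letters are not in this window.

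Igfbp7 encodes a secreted protein that also binds collagen and activin. Its detected probe gave log2 levels of 9.51, 9.05, 8.53 and 9.73 in TGF-beta samples 1 to 4, against 5.60, 4.96, 5.16 and 5.37 in untreated samples 1 to 4. Before correction the deposited signals were 846, 471, 533 and 1013 with TGF-beta, against 161, 149.5, 153 and 154 without. All TGF-beta samples stood far above all untreated ones, and the untreated signals lay at the edge of detection, with 3 of the 4 arrays passing.

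The Igfbp7 means were 9.20 ± 0.53 with TGF-beta and 5.27 ± 0.28 untreated (SD, n = 4 each), a difference of 3.93 on the log2 scale or 15.2-fold. It stood at rank 10 of 9062 tested genes by size of rise. The untreated level was near background, and the size varied with the background step. The difference was 2.11 without background correction, 3.10 with a larger offset of 50 and 2.23 in the authors' processed values. The effect was 4.13 for replicates 1 and 4 and 3.73 for replicates 2 and 3. The difference between the sets, which played no part in choosing the family, was -0.41 (SE 0.298, 95% interval -1.07 to 0.25, limma adjusted p = 0.699). The other 4 probes annotated to Igfbp7 were detected on no array of either group, with group means of 4.43 to 4.60, so the rise rests on a single probe.

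**Figure D1:**
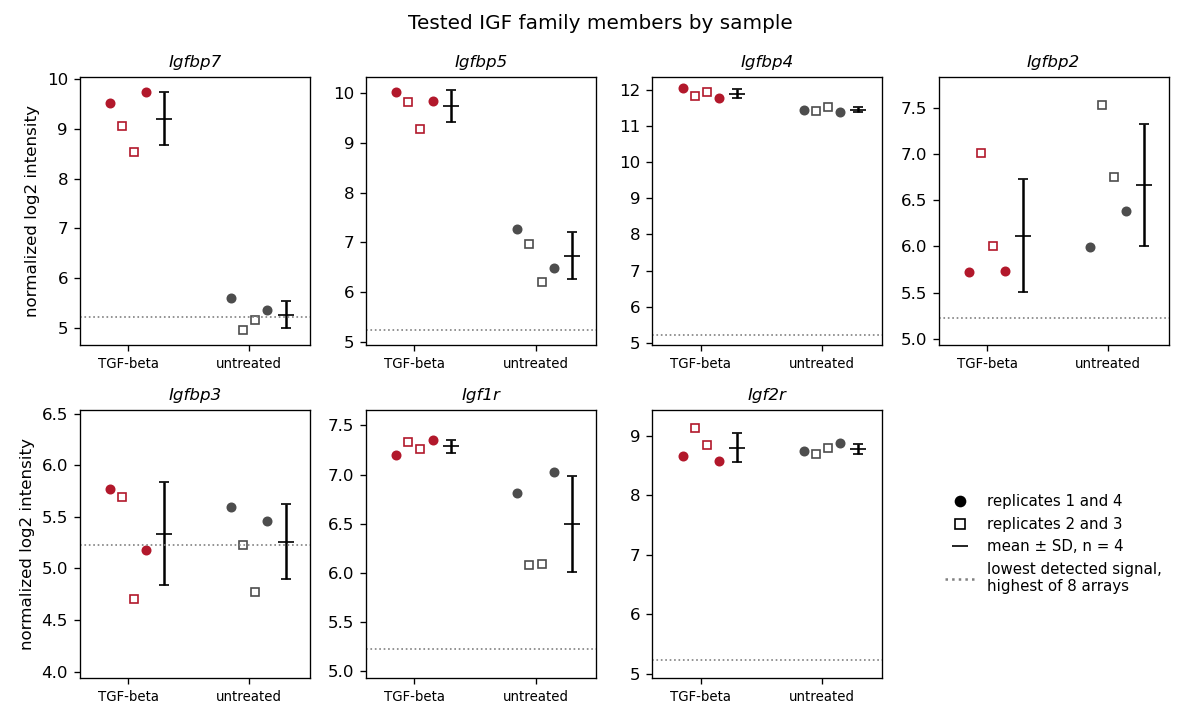
Normalized log2 intensity (vertical axis, own range in each panel) of the brightest tested probe of 7 genes in 4 TGF-beta samples (red) and 4 untreated samples (grey). Filled circles are replicates 1 and 4, open squares replicates 2 and 3, bars the mean ± SD, and the dotted line the lowest detected signal on the array where it was highest (5.23). Igfbp7, Igfbp5, Igfbp4 and Igf1r have no overlap between groups, while Igfbp2, Igfbp3 and Igf2r do.

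Igfbp5 encodes a binding protein that also attaches to extracellular matrix. It rose 8.05-fold. The brightest of its 3 probes gave 10.02, 9.81, 9.28 and 9.83 with TGF-beta, against 7.26, 6.96, 6.21 and 6.48 untreated. The groups were wide apart on this probe, and every untreated array detected it. The means were 9.74 ± 0.32 with TGF-beta and 6.73 ± 0.47 untreated (SD, n = 4 each), and the difference was 3.01 (SE 0.246, 95% interval 2.46 to 3.55, limma adjusted p = 4.1e-05).

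The other Igfbp5 probes also rose, by 2.75 (adjusted p = 4.8e-05, limma) and 2.73 (1.7e-05) on the log2 scale. The first of them gave 9.81, 9.37, 8.84 and 9.45 with TGF-beta, against 7.09, 6.61, 6.29 and 6.48 untreated. The other gave 9.34, 9.03, 8.80 and 9.30 with TGF-beta, against 6.79, 6.48, 6.07 and 6.21 untreated. On all 3 probes replicate 1 was the highest and replicate 3 the lowest sample of each group. The rise was 3.06 for replicates 1 and 4 and 2.96 for replicates 2 and 3 on the brightest probe, with a set difference of -0.10 (SE 0.441, limma adjusted p = 0.960). By size of rise Igfbp5 stood at rank 29 of 9062 genes. Its difference was 2.05 without background correction, and the call held under all 22 alternatives tried.

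In the RefSeq gene table Igfbp5 lies next to Igfbp2 on chromosome 1, and Igfbp1 next to Igfbp3 on chromosome 11. Igfbp2, a binding protein abundant in fetal tissues, gave 5.73, 7.01, 6.0 and 5.73 on its brighter probe with TGF-beta, against 5.99, 7.53, 6.75 and 6.39 untreated. The groups overlapped, replicate 2 was highest in both, and in each of the 4 same-numbered pairs the TGF-beta sample was the lower. The difference was -0.55 (SE 0.359, 95% interval -1.35 to 0.25, limma adjusted p = 0.343), and with the replicate number as a block the adjusted p was 0.0131, which changes the call. With the replicate set as the block it was 0.0915, and leaving out 1 sample gave differences of -0.26 (without untreated sample 2) to -0.85 (without TGF-beta sample 2).

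The second Igfbp2 probe gave 4.80, 5.70, 5.28 and 5.54 with TGF-beta, where 3 of 4 arrays detected it, against 5.81, 6.21, 6.26 and 5.47 untreated. Its groups overlapped as well, and the difference was -0.61 (SE 0.235, limma adjusted p = 0.105, and 0.0360 with the replicate block). Within the replicate sets the brighter probe had a difference of -0.46 (replicates 1 and 4) and of -0.64 (replicates 2 and 3).

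Igfbp4, an IGF-binding protein whose cleavage by Pappa frees IGF, gave bright signals in both groups. Its brighter probe gave 12.06, 11.83, 11.94 and 11.78 with TGF-beta, against 11.45, 11.43, 11.54 and 11.38 untreated. The groups did not overlap, though the gap between them was small. The means were 11.90 ± 0.12 with TGF-beta and 11.45 ± 0.07 untreated (SD, n = 4 each), a rise of 0.45 or 1.37-fold (SE 0.127, 95% interval 0.17 to 0.73, limma adjusted p = 0.0331).

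The second Igfbp4 probe gave 10.95, 11.12, 11.26 and 10.56 with TGF-beta, against 10.71, 10.37, 10.32 and 10.19 untreated, and TGF-beta sample 4 lay below untreated sample 1. Its difference of 0.57 (SE 0.183) missed the threshold (limma adjusted p = 0.0546, and 0.0186 with the replicate block). On the brighter probe the effect was 0.51 for replicates 1 and 4 and 0.40 for replicates 2 and 3. That call was lost with median scaling of the arrays (0.33, adjusted p = 0.321), within either replicate set, and when any single untreated sample or TGF-beta sample 1 or 3 was left out (adjusted p of 0.0579 to 0.0817 for these 6, limma).

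Igfbp3, the main carrier of IGFs in blood, was close to background. Its tested probe gave 5.77, 5.70, 4.70 and 5.18 with TGF-beta, against 5.59, 5.22, 4.77 and 5.46 untreated, and 3 arrays of each group detected it. The groups overlapped fully, with replicate 3 lowest in both. The difference was 0.07 (SE 0.261, 95% interval -0.50 to 0.65, limma adjusted p = 0.884).

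Igfbp1, a binding protein best known from liver, and Igfbp6, which prefers IGF-2, were detected on no array. The Igfbp1 probe gave 4.47, 4.81, 4.43 and 4.52 with TGF-beta, against 4.43, 4.58, 4.49 and 4.47 untreated. The Igfbp6 probe gave 4.61, 4.75, 4.83 and 4.97 with TGF-beta, against 4.48, 4.47, 4.60 and 4.66 untreated. These values lie below the lowest detected signal, so no fold is given, and a level below this limit was not detectable with these probes.

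**Figure D2:**
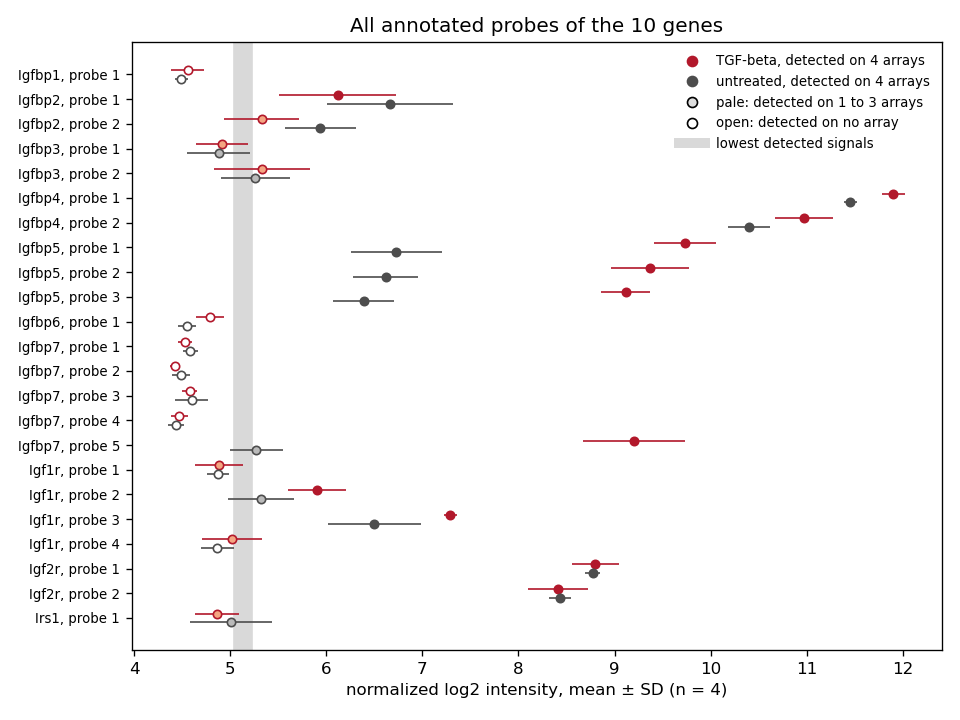
Mean ± SD of the normalized log2 intensity over 4 samples for all 23 annotated probes, TGF-beta in red above untreated in grey. Filled points were detected on 4 arrays of the group, pale points on 1 to 3 and open points on none, and the grey band spans the arrays' lowest detected signals (5.04 to 5.23). Only 1 of 5 Igfbp7 probes was detected, while all 3 Igfbp5 probes were.

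Igf1r, the signalling receptor, rose 1.72-fold on the brightest of its 4 probes. That probe gave 7.20, 7.33, 7.26 and 7.35 with TGF-beta, against 6.81, 6.08, 6.09 and 7.03 untreated. The TGF-beta samples lay within a narrow range, whereas untreated samples 2 and 3 were clearly lower than untreated samples 1 and 4. The means were 7.29 ± 0.07 with TGF-beta and 6.50 ± 0.49 untreated (SD, n = 4 each), and the difference was 0.79 (SE 0.220, 95% interval 0.30 to 1.27, limma adjusted p = 0.0328). It was 0.36 without background correction and 0.39 in the authors' processed values, with the call kept in both.

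The Igf1r difference was 1.21 for replicates 2 and 3, against 0.36 for replicates 1 and 4. The difference between the sets was 0.85 (SE 0.237, unadjusted 95% interval 0.32 to 1.37) and did not pass after adjustment (limma adjusted p = 0.291). In this comparison of sets 1 of 9062 genes passed, or 0.011%, and 0 of the 7 tested members did. At an unadjusted p under 0.05 (limma) 921 genes, or 10.2%, and 1 member, Igf1r, passed. The Igf1r call was lost within replicates 1 and 4 (adjusted p = 0.208), with median scaling (0.62, adjusted p = 0.0994), with no detection filter (adjusted p = 0.0765), and without untreated sample 2 or 3 or any single TGF-beta sample (adjusted p of 0.0551 to 0.0869, limma).

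A second Igf1r probe gave 6.14, 6.10, 5.90 and 5.48 with TGF-beta, against 5.30, 4.90, 5.33 and 5.75 untreated. Only untreated sample 4 reached into the TGF-beta range, and the difference of 0.58 missed the threshold (SE 0.210, limma adjusted p = 0.0837). The remaining Igf1r probes were not tested, as only 1 and 2 of the 8 arrays detected them.

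Igf2r, the receptor that clears IGF-2, gave 8.66, 9.13, 8.84 and 8.57 with TGF-beta, against 8.75, 8.69, 8.79 and 8.88 untreated. The groups overlapped, and the difference was 0.03 (SE 0.151, 95% interval -0.31 to 0.36, limma adjusted p = 0.932). Its second probe gave 8.05, 8.52, 8.79 and 8.30 with TGF-beta, against 8.59, 8.41, 8.31 and 8.42 untreated, a difference of -0.02 (limma adjusted p = 0.957). On the brighter probe the effect was -0.20 for replicates 1 and 4 and 0.25 for replicates 2 and 3, and the difference between the sets, 0.44, had an adjusted p of 0.602 (limma).

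Irs1, which links the receptor to PI3-kinase, was near the detection limit. It gave 5.2, 4.74, 4.80 and 4.71 with TGF-beta, where 1 array detected it, against 5.14, 4.82, 5.53 and 4.54 untreated, where 2 arrays did. The groups overlapped, and with 3 of 8 arrays detecting it the gene was not tested.

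**Figure D3:**
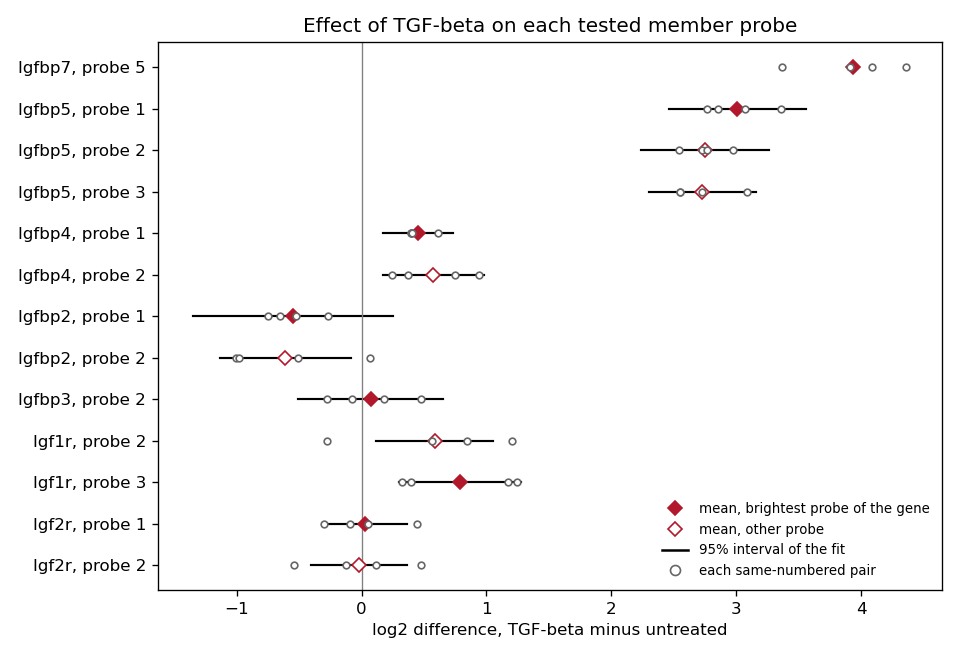
Log2 difference, TGF-beta minus untreated (horizontal axis), for the 13 tested probes, numbered as in the plot of all annotated probes. Diamonds are means, circles the differences of same-numbered samples and lines the 95% intervals of the fit, omitted for Igfbp7 because its rise chose the family. Igfbp7 (3.93) and the 3 Igfbp5 probes (2.73 to 3.01) stand far to the right of the other probes.

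Other genes of the pathway were taken from 6 lists with 63 genes, of which 55 had a named probe and 32 were tested. Of the 32, 5 rose, 1 fell and 26 did not pass, with a median difference of -0.03, against 9.56% of all tested genes that rose and 9.88% that fell. With the replicate block the counts were 6 and 3, against 1302 and 1571 of all 9062 tested genes.

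Of the ligands and carriers, only Igf2 was tested. Igf2 gave 5.81, 6.06, 5.45 and 6.22 with TGF-beta, against 6.03, 7.18, 6.90 and 5.76 untreated. Untreated samples 2 and 3 were the highest and the groups otherwise overlapped, with a difference of -0.58 (SE 0.311, limma adjusted p = 0.238). The effect was 0.12 for replicates 1 and 4 (limma adjusted p = 0.7455) and -1.28 for replicates 2 and 3, where it passed on its own (0.0101). Each of these fits has only 2 samples per group. The difference between the sets did not pass (-1.40, limma adjusted p = 0.228). Igf1 was detected on 0 TGF-beta and 2 untreated arrays and was not tested.

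Among proteases of the binding proteins and their inhibitors, 4 genes were tested. Of these 2 rose and 1 fell, against 9.56% of all tested genes that rose and 9.88% that fell. Htra1, a secreted protease that cuts several binding proteins, gave 6.85, 7.40, 6.20 and 6.92 with TGF-beta, against 5.59, 5.52, 5.45 and 5.44 untreated. The groups were well apart, with a rise of 1.34 or 2.53-fold (SE 0.222, limma adjusted p = 0.0027). The untreated level was near background, and the rise was 0.50 without background correction, 0.92 with the offset of 50 and 0.54 in the authors' processed values. The other Htra1 probe was detected on 4 TGF-beta arrays and 0 untreated arrays, and it was at least 2.34-fold higher with TGF-beta. It met the detection filter only through the group where it was high, so it adds no support to the rise. The bound sets the TGF-beta mean against the untreated arrays' lowest detected signals (5.08). It holds only on the background-corrected scale used here, where folds near background depend on the correction. Stc1, a stanniocalcin, gave 6.50, 4.78, 5.09 and 6.53 with TGF-beta, where 3 arrays detected it, against 7.70, 6.87, 6.97 and 7.71 untreated.

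Stc1 was thus lower in every TGF-beta sample than in any untreated one, and it fell by 1.59 on the log2 scale (SE 0.408, limma adjusted p = 0.0227). The difference was -0.64 without background correction and -0.69 in the authors' processed values. Its call was lost with no detection filter (0.0766) and without untreated sample 1 (0.0656), untreated sample 4 (0.0585) or TGF-beta sample 3 (0.0675). The other Stc1 probe was detected on no array, so the fall rests on a single probe. St14, a membrane-anchored serine protease, gave 9.19, 9.73, 9.36 and 9.0 with TGF-beta, against 8.91, 8.62, 8.36 and 8.86 untreated. Its groups stood only just apart, and it rose by 0.63 on that probe (SE 0.191, limma adjusted p = 0.0447). Its other tested probes did not pass, and the call was lost in 10 alternatives, among them the omission of any single sample except TGF-beta sample 4.

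Of 6 tested receptors and adaptors other than the members, 0 rose and 0 fell in limma, against 9.56% and 9.88% of all tested genes. At an unadjusted p under 0.05 2 were higher and 1 was lower, against 14.8% and 18% of all tested genes. With the replicate block 1 rose and 1 fell, against 1302 and 1571 of all 9062. Insr, the insulin receptor, gave 8.09, 7.94, 8.20 and 8.09 with TGF-beta, against 8.38, 7.88, 8.15 and 7.87 untreated, with a difference of 0.01 (SE 0.154, limma adjusted p = 0.974). Irs2 gave 8.23, 7.80, 7.27 and 8.20 with TGF-beta, against 8.40, 8.34, 8.34 and 8.67 untreated. Every TGF-beta sample was below every untreated sample for Irs2, with a difference of -0.56 (SE 0.214, limma adjusted p = 0.101, and 0.0269 with the replicate block). It also passed with median scaling (0.0494) and within replicates 2 and 3 (0.0434), but not within replicates 1 and 4 (0.267, limma adjusted p).

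Among PI3-kinase, Akt, mTOR and Foxo genes, 1 of 17 tested genes rose and 0 fell in limma, with a median of -0.07. Of all tested genes 9.56% rose and 9.88% fell. At an unadjusted p under 0.05 1 of the 17 was higher and 1 was lower, against 14.8% and 18% of all tested genes. With the replicate block 1571 of all 9062 tested genes fell, and 1 of the 17 did, Pik3r1, which encodes a regulatory subunit of PI3-kinase. Its difference was -0.99 (limma adjusted p = 0.0666, and 0.00055 with the block), lower in 4 of 4 pairs. Foxo1, a transcription factor that Akt excludes from the nucleus, gave 7.41, 7.41, 7.24 and 7.29 with TGF-beta, against 6.84, 6.80, 7.01 and 6.59 untreated. The groups did not overlap, and the rise was 0.53 or 1.44-fold (SE 0.136, limma adjusted p = 0.0231). It was 0.27 without background correction. That call was lost in 7 of 22 alternatives: with median scaling (0.35), within replicates 2 and 3, and without untreated sample 1, 2 or 4 or TGF-beta sample 1 or 2 (adjusted p of 0.0524 to 0.0654 for these 5, limma). The other Foxo1 probe was detected on no array, so the rise rests on a single probe.

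A further list holds other genes that share the IGFBP domain. Of its 3 tested genes 2 rose, against 9.56% of all tested genes. Htra1 was counted with the proteases and not in this list. Ccn2, a matricellular protein long used as a readout of TGF-beta, gave 13.34, 12.52, 12.66 and 13.19 with TGF-beta, against 11.49, 9.27, 9.83 and 11.83 untreated. Untreated samples 2 and 3 were the lowest, and the rise was 2.32 or 5.0-fold (SE 0.511, limma adjusted p = 0.0113). It was 1.61 for replicates 1 and 4 and 3.04 for replicates 2 and 3. The difference between these sets, 1.43, did not pass (limma adjusted p = 0.196). On the second Ccn2 probe the rise was 2.36 (limma adjusted p = 0.0298), and the groups overlapped. Ccn1 gave 8.49, 9.03, 8.93 and 8.48 with TGF-beta, against 6.81, 6.61, 7.22 and 7.19 untreated, and it rose by 1.77 or 3.41-fold (SE 0.195, limma adjusted p = 0.00027). Without background correction that rise was 1.12. Crim1 was the third gene and did not pass, with a difference of 0.14.

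**Figure D4:**
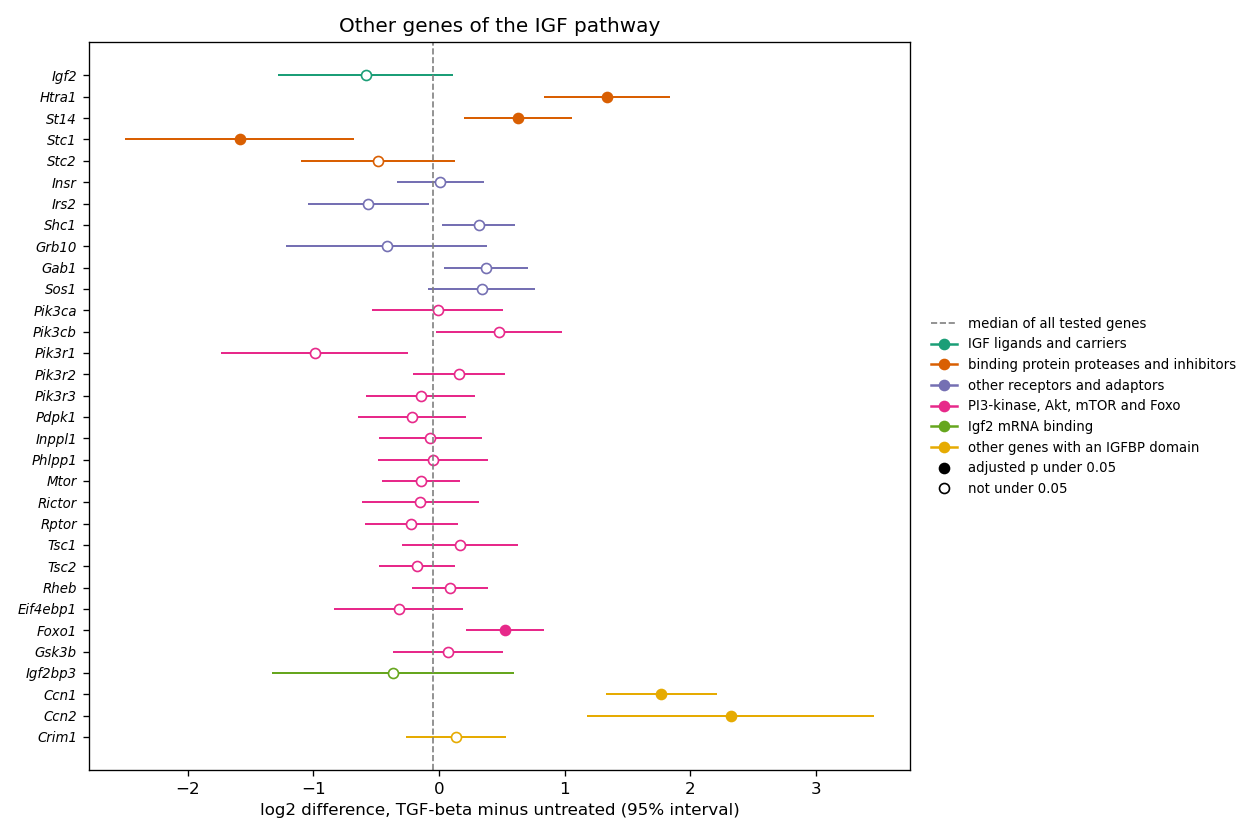
Log2 difference, TGF-beta minus untreated (horizontal axis), with its 95% interval for the 32 tested genes of the 6 pathway lists, coloured by list. Filled points passed the threshold, and the dashed line is the median of all tested genes (-0.05). Htra1, St14, Foxo1, Ccn1 and Ccn2 are filled to the right and Stc1 to the left.

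The genes whose levels followed Igfbp7 most closely over the 8 samples, by Pearson's r among 9061 other tested genes, were Fst (0.997), Dok2 (0.996), Cavin3 (0.994) and Iqgap1 (0.993). Fst encodes follistatin, an activin antagonist. Fst and Dok2 were detected on 4 TGF-beta and 0 untreated arrays, so both met the detection filter only through the group where they were high. Their levels with TGF-beta were at least 3.87-fold and 13.9-fold higher by the bound described for Htra1, on the scale used here. Igfbp5 stood at rank 54 with r = 0.980. The 8 samples fall into the 2 treatment groups, so r is a description with no p.

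Markers of the cell types that the samples could hold were set beside these results. In each sum, probes that were not detected add background signal. The 8 epithelial markers, all tested, summed to a linear level of 45570 to 55414 with TGF-beta, against 20699 to 24463 untreated. The brightest with TGF-beta were Krt8, Krt19 and Krt18 (log2 means of 14.71, 13.21 and 12.72), so the sum mainly follows these keratins. Of the 8, 6 rose while Cdx2 fell, against 9.56% of all tested genes that rose and 9.88% that fell. All 8 except Epcam were detected on 4 arrays of each group. Epcam, 1 of the 6 that rose, was detected on 4 TGF-beta and 0 untreated arrays. It met the detection filter only through the group where it was high, so its test adds no support to that count. Of 10 fibroblast markers, 8 (among them Col1a1, Col1a2, Col3a1 and Pdgfra) were detected on no array, and the summed level was 456 to 586 with TGF-beta, against 713 to 1710 untreated. Vim was the only fibroblast marker tested, and it fell by 1.42 on the log2 scale (limma adjusted p = 0.0207). The fibroblast sum followed Vim (log2 means of 8.25 with TGF-beta and 9.67 untreated), as no other fibroblast marker had a group mean above 4.92. The sum for 5 smooth muscle markers was 150 to 207 with TGF-beta, against 131 to 146 untreated, with 3 of them (Myh11, Tagln and Cnn1) on no array. Only Acta2 of these was tested, and its difference of 0.70 did not pass (limma adjusted p = 0.174). The 6 endothelial markers summed to 147 to 163 with TGF-beta, against 153 to 176 untreated, with 0 tested and 3 (Tek, Emcn and Tie1) on no array. The 5 leukocyte markers with a probe summed to 192 to 220 with TGF-beta, against 146 to 203 untreated, with 3 tested and 1 (Itgam) on no array. None of the 3 passed without the replicate block, and with it Laptm5 rose by 0.77 on the log2 scale (limma adjusted p = 0.0038, against 0.0683). The part of these shifts in the results for Igfbp7, Igfbp5, Igfbp4 and Igf1r was not tested.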

How the data were processed

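Total RNA from 8 samples, 4 with TGF-beta and 4 untreated, was hybridised to 1 array each, and groups and replicate numbers came from the labels. The deposited table gives each probe an intensity, not normalized, with its detection p-value, per the file headers. The authors' processed table was deposited without a stated method, appears from its values to be on a log2 scale with a median of 7.1 in every column, and served as an alternative. Neither labels nor headers name the scanner software.

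Intensities were background-corrected with normexp inferred from the detection p-values (steps of 936 negative controls), offset by 16, log2-transformed and then quantile normalized. A probe was tested with detection p under 0.05 on at least 4 of 8 arrays, and a gene was represented by its brightest tested probe. limma 3.58.1 (R 4.3.3; lmFit, eBayes, group alone, two-sided, Benjamini-Hochberg) gave the tests, and a fit with an interaction gave the differences between replicate sets. The procedure was tested on simulated data whose arrays varied independently. Those data held no pairing of same-numbered samples, so they do not show how such pairing affects the fit on group alone. Figures used matplotlib 3.10.9 in Python 3.11.15. Symbols came from the platform annotation, which names 34885 probes with 1 symbol, 18 with several, and does not list 10378. Entrez identifiers of 34807 probes matched a RefSeq gene table, and 0 symbols changed. Precision is limited by the 8 arrays, of which no pair was identical.

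Same-numbered samples deviated together (correlations of 0.534, 0.512, 0.515 and 0.555), and 8 of 8 arrays were closest to their own number across groups. This pairing was read from the data, as the labels do not explain the numbers. The members and lists were chosen with earlier results of these data known. Named were all 10 members, Igf1, Igf2, Insr and Irs2, up to 6 rises and 6 falls of the pathway lists by adjusted p, and the 4 genes most correlated with Igfbp7. Crim1, Pik3r1 and Laptm5 were chosen after their values were seen.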

Additional observations from a re-analysis of the deposited data

Results flagged for a closer look

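Irs2 in untreated sample 4 had a log2 level of 8.67 and stood apart from the other untreated samples, which lay between 8.34 and 8.40. The gap to its nearest neighbour was 0.832 of the group's range. Such a gap arises by chance in about 1 of 20 groups of this size, and 32 groups of 4 samples (16 genes) were examined.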

How the results depend on the processing

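Of 22 alternatives, all kept the call for Igfbp5, whose difference lay between 2.05 and 3.19. No result named here reversed its call. Of the 6 tested members other than Igfbp7, 3 rose. That count was 1 with median scaling, 1 within replicates 1 and 4, and 1 to 2 when 1 sample was left out. With the replicate block 1 member fell (Igfbp2), and Irs2, Pik3r1 and Laptm5 passed. The block changed no other call of a gene named here at its brightest probe. It gave 1302 genes higher and 1571 lower, against 866 and 895 without it, and the replicate set as a block gave 1308 and 1582. Median scaling gave 495 higher and moved the median of all genes to -0.18, with 34.5% of calls higher, against 49.2%. Leaving out 1 sample gave 664 to 757 higher and 573 to 805 lower, with the fewest lower without untreated sample 1. The difference between replicate sets passed for 1 gene. It passed for 54 without background correction, 32 with median scaling, 2 with cyclic loess, 57 in the authors' processed values, 18 with detection p under 0.01 on all arrays and 0 to 2 with 1 sample left out. It passed for 0 members in each of the 14 alternatives. Causes of these shifts were not tested. Signals near background limit Igfbp3, Irs1 and the untreated level of Igfbp7.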
